A study of Mus musculus with 6 samples.

Results

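The catenins that tie cadherins to the cytoskeleton were followed at the RNA level in the E12.5 maxillary process, the facial swelling that forms the upper jaw and the palatal shelves. The group was defined by gene symbol, with earlier results of these data known. It holds 7 of the 53801 genes in the count files, namely Ctnna1, Ctnna2, Ctnna3, Ctnnb1, Jup, Ctnnd1 and Ctnnd2. RNA-seq of the dissected tissue was available for 3 WT samples and 3 samples of Wnt1cre; Rosa26Dlx2/- embryos (Dlx2OE), all labelled C57BL/6 and at embryonic day 12.5. In Dlx2OE, 1 Rosa26 allele carries a CAG-driven Dlx2-3xFlag cassette behind a stop signal that wnt1cre removes, so that the transgene is switched on in the neural crest lineage and not in surface epithelium, blood vessels or muscle. Littermates that gave tissue number 7 in the labels and 6 in the methods, and whether a sample holds 1 embryo or more is not stated. Neither Cre-negative carriers of the cassette nor wnt1cre embryos without it were among the controls. The wnt1cre allele and the Dlx2 cassette can therefore not be told apart.

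Classical cadherins hold neighboring cells together, and their cytoplasmic tails bind β-catenin (Ctnnb1) or its close relative plakoglobin (Jup). α-catenins bind β-catenin or plakoglobin and actin, Ctnna1 in most tissues, Ctnna2 mainly in neurons and Ctnna3 mainly in heart and testis. p120-catenin (Ctnnd1) and the mainly neuronal δ-catenin (Ctnnd2) bind the cadherin tail close to the membrane and keep cadherins at the cell surface, while β-catenin outside junctions is the transcriptional effector of Wnt signaling.

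The results turned on the α-catenins and on Ctnnd1, so 1 promoter each of Ctnna2, Ctnna3 and Ctnnd1 is shown. RefSeq promoters of GRCm38.p6 were available for 6 of the 7 genes and cover 250 bases before and 50 bases after the start. Capitals mark CpG dinucleotides in the first 2 sequences and the homeodomain core TAATT in the last, each read 5′ to 3′ on the strand of the gene.
Ctnna2 promoter, chr6:77979618-77979917, reverse strand: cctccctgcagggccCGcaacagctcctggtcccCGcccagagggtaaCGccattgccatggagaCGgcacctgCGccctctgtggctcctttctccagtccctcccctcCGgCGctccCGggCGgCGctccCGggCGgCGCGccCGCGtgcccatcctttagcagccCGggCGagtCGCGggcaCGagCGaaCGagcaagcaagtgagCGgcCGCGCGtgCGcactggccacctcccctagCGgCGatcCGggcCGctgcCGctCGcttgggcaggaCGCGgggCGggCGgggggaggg
Ctnna3 promoter, chr10:63429848-63430147, forward strand: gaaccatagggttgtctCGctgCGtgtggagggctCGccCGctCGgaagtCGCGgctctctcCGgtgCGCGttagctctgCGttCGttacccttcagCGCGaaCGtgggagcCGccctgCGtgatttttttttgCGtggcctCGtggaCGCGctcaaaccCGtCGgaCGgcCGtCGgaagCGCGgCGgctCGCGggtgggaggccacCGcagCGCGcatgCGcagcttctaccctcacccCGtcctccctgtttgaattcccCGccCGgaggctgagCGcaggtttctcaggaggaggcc
Ctnnd1 promoter, chr2:84650691-84650990, reverse strand: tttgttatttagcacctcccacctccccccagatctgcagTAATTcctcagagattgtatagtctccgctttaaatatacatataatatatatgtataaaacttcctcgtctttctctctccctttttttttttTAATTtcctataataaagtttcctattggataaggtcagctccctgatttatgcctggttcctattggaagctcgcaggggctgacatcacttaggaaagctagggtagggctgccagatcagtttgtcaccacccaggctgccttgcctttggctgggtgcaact

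The Ctnna2 window had 38 CpG dinucleotides and a GC content of 75.3%, and the printed Ctnna3 window had 39 and 67.0%. The median over all 32851 promoters of the table was 7 CpG dinucleotides and 52.7% GC. The printed Ctnnd1 window had 3 CpG dinucleotides, 42.7% GC and 2 matches to TAATT. Searched on both strands, TAATT stood in 27.0% of all promoters, and CTTTGA, the core bound by Lef/Tcf factors, stood in 16.0%. Neither motif was in the printed windows of Ctnna2 and Ctnna3. The table holds other promoters of some of these genes, which differ. The 2 further Ctnna3 windows had 7 and 2 CpG dinucleotides and 46.0 and 47.3% GC, one of them with 2 matches to TAATT and the other with 1 to CTTTGA. The second Ctnnd1 window had 30 CpG dinucleotides, 67.7% GC and 0 matches to either motif. Such matches describe letters and not binding.

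Counted read pairs per sample ranged from 26155500 to 31308813, and 17514 genes had enough counts for a test. Levels are CPM, read pairs relative to the library size as scaled by TMM, and 3 counts, the smallest level taken as detectable, equal 0.0955 to 0.111 CPM. Dlx2, the overexpressed gene, had 35.0 to 45.2 CPM in WT and 119 to 131 CPM in Dlx2OE (log2 fold change 1.6, SE 0.118, adjusted p = 0.00241, edgeR's quasi-likelihood test, Benjamini-Hochberg adjusted). Every facial mesenchyme marker examined, 10 of 10, was detected. By the same test 2 were higher and 0 lower, beside 2.99% and 3.46% of all genes tested. These were Alx4 (log2 fold change 1.39, adjusted p = 0.0211) and Twist1 (0.65, adjusted p = 0.0402). With a sample left out, Alx4 passed in 3 of 6 fits and Twist1 in 1 of 6. The sum of the 10 markers was 4330 to 4741 CPM in WT and 5055 to 5213 CPM in Dlx2OE. The Dlx2OE samples differed among themselves. The summed level of 12 neuron markers was 184, 480 and 291 CPM in WT samples 1 to 3 and 307, 881 and 1888 CPM in Dlx2OE samples 1 to 3. The sum of 13 epithelium markers was 820, 1489 and 1115 CPM in WT and 1976, 636 and 655 CPM in Dlx2OE. Reads outside annotated exons were 5.34 to 5.79% of read pairs in WT and 6.03, 8.21 and 15.4% in Dlx2OE. In bulk tissue, fewer cells of a type and less RNA per cell cannot be told apart.

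Of the catenins, Ctnna2 rose in Dlx2OE, and the other 5 that could be tested did not pass the test. An adjusted p under 0.05 was thus reached by 1 of 6 tested catenins, beside 6.45% of all genes tested. The plot of the levels in each sample shows Ctnna2 as the one tested catenin whose genotypes did not overlap, which held for 34.1% of all genes tested.

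**Figure D1:**
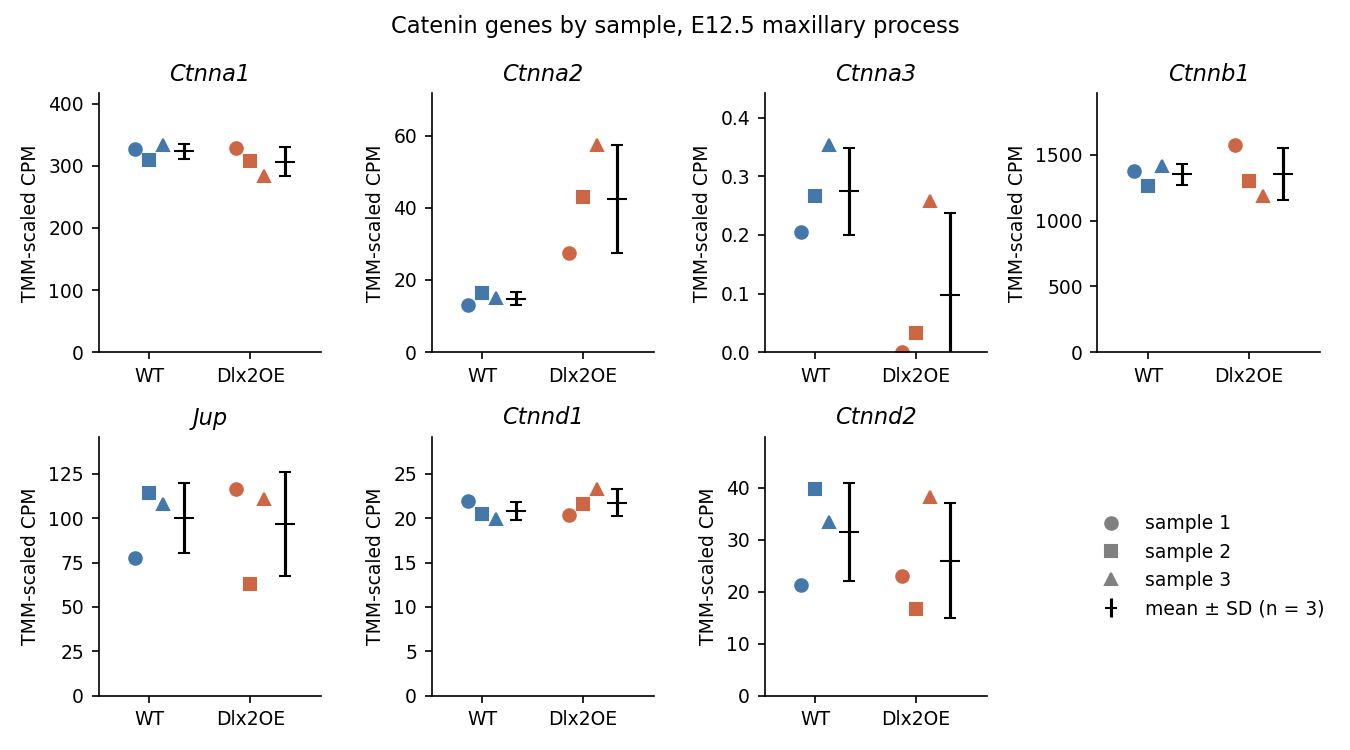
Levels of the 7 catenins in each sample, as TMM-scaled CPM on linear axes that start at 0, with WT in blue and Dlx2OE in red and black bars for mean ± SD (n = 3). All 3 Dlx2OE samples lie above the WT samples for Ctnna2 (27.4 to 57.3 against 12.9 to 16.5 CPM), while the groups overlap for the other 6 genes.

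Among the α-catenins, Ctnna1 (ENSMUSG00000037815), the broadly expressed actin linker, lies on chromosome 18 of GRCm38 (35118859 to 35254779, forward strand). Its levels were 327, 309 and 333 CPM in WT and 329, 307 and 283 CPM in Dlx2OE. The genotypes overlapped, with Dlx2OE sample 3 lowest. The log2 fold change was -0.08 (SE 0.106, 95% interval -0.32 to 0.17, adjusted p = 0.658), so a change of 2-fold lies outside the interval.

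Ctnna2 (ENSMUSG00000063063), the neuronal α-catenin, extends over 1098063 bp on the reverse strand of chromosome 6, from 76881637 to 77979699. It was counted 379, 498 and 468 times in WT and 811, 1347 and 1553 times in Dlx2OE. These counts corresponded to 12.9, 16.5 and 15 CPM in WT and 27.4, 42.9 and 57.3 CPM in Dlx2OE. The lowest Dlx2OE sample was 1.66 times the highest WT sample, and the Dlx2OE samples spread more widely than the WT samples. The means were 14.8 ± 1.79 and 42.5 ± 15 CPM (SD, n = 3 each), a 2.87-fold rise (log2 fold change 1.52, SE 0.253, 95% interval 0.94 to 2.10, adjusted p = 0.0202, edgeR's quasi-likelihood test). The exact two-sided permutation test over the samples gave p = 0.1, the smallest it can give for 3 against 3. Among the 262 upregulated genes (1.50% of the genes tested), Ctnna2 held position 114 by p and position 200 by fold change.

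The call depended on which samples were included. Without WT sample 1 the adjusted p was 0.0790, without WT sample 2 it was 0.0866 and without Dlx2OE sample 2 it was 0.0626, while the log2 fold change stayed between 1.24 and 1.75 in the 6 fits with a sample left out. Within Dlx2OE, the order of Ctnna2 was that of the neuron marker sum and of the reads outside exons, with sample 3 highest in all, and within WT it was that of both as well. No neuron marker passed the test by edgeR (0 of 12 at an adjusted p under 0.05, beside 2.99% of all genes higher). At an unadjusted p under 0.05 there were 5, and the share of all genes at that level was not taken. DESeq2 gave 2 higher, beside 5.54% of all genes, and 5 were higher without the filter on low counts, beside 2.58%. The median log2 fold change of the 12 markers was 1.37, beside 0.0028 for all genes tested. Without Dlx2OE sample 1, 7 of the 12 neuron markers and 2 of 5 tested markers of crest-derived glia were higher, beside 5.36% of all genes in that fit. Dlx2OE sample 1 had a neuron marker sum within the WT range. Ctnna2 in that sample was 1.85 times the WT mean, and that sample alone against WT gave a log2 fold change of 0.91 (SE 0.215, adjusted p = 0.0629), where the single sample was assumed to vary like WT. The neuron markers had a median of -0.85 in the same fit. The sum of 6 markers of crest-derived glia was 141, 144 and 148 CPM in WT and 93.2, 190 and 316 CPM in Dlx2OE. Of these markers, Foxd3 was at 0 in all samples. The sum had the order of Ctnna2 within Dlx2OE but not within WT. The part of neuronal or glial RNA and of reads outside exons in the Ctnna2 difference was not tested.

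**Figure D2:**
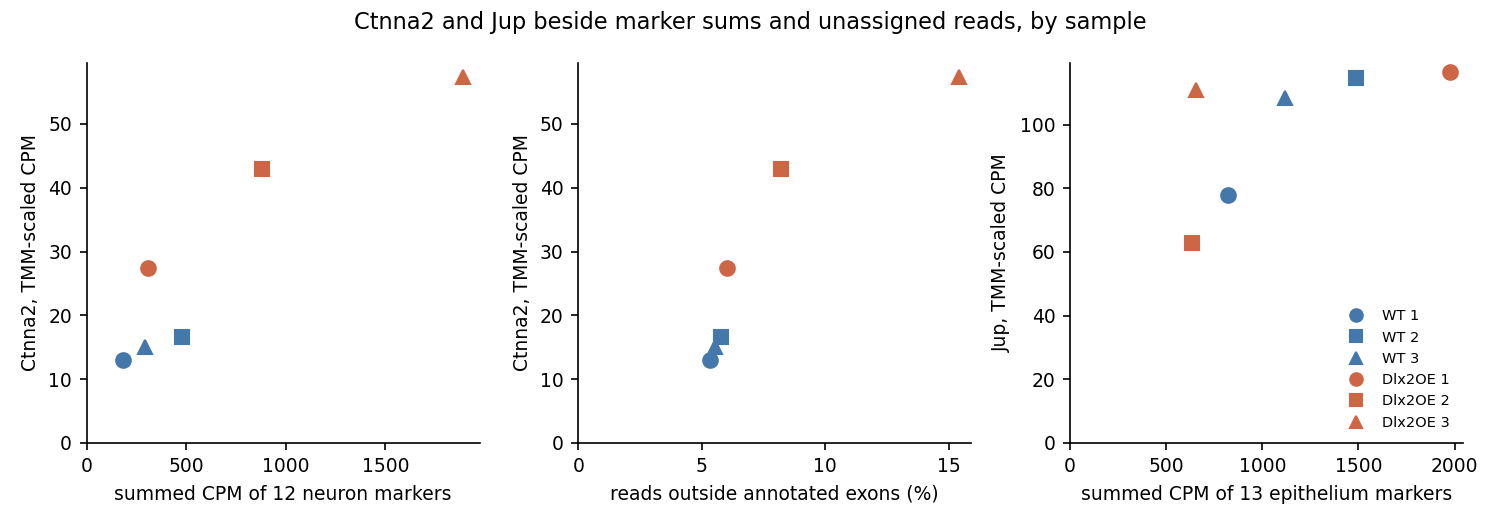
Ctnna2 in CPM against the summed CPM of 12 neuron markers and against the percentage of read pairs outside annotated exons, and Jup in CPM against the summed CPM of 13 epithelium markers, with 1 point per sample. Dlx2OE sample 1 has a neuron sum of 307 CPM, inside the WT range of 184 to 480 CPM, and 27.4 CPM of Ctnna2, above the 3 WT samples.

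Ctnna3 (ENSMUSG00000060843; forward strand of chromosome 10, 63430098 to 65003667) was near the limit of detection. It had 6, 8 and 11 counts in WT and 0, 1 and 7 counts in Dlx2OE, and it did not pass the filter on low counts. Dlx2OE sample 3 lay within the WT range, and samples 1 and 2 were under the floor of 3 counts. Without the filter, the log2 fold change was -1.54 (SE 0.934, adjusted p = 0.401), and a difference was not detectable at this depth.

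Each α-catenin gene holds a gene for a leucine-rich repeat synaptic adhesion protein in a long intron, on the opposite strand. Lrrtm1 lies in intron 8 of 19 of Ctnna2, an intron of 461237 bp, and had 11.8, 19.2 and 14 CPM in WT and 22.8, 8.88 and 14.4 CPM in Dlx2OE. The genotypes overlapped, and the order of the Dlx2OE samples differed from that of Ctnna2, with sample 1 highest. Its log2 fold change was 0.03 (SE 0.334, 95% interval -0.74 to 0.80, adjusted p = 0.954). Lrrtm2, in intron 7 of 17 of Ctnna1, had 0.77 (adjusted p = 0.503). Lrrtm3, in intron 7 of 17 of Ctnna3, had -1.03 (95% interval -1.95 to -0.11, adjusted p = 0.138). None of the 3 nested genes passed the test by edgeR or by DESeq2 at its default setting. By edgeR there was 1 at an unadjusted p under 0.05, a level for which the share of all genes was not taken. With its filtering tuned to 0.05, DESeq2 gave 1 lower, in a fit where 2459 genes passed in either direction. The share of all genes that were lower in this DESeq2 fit was not taken. By edgeR, Lrrtm3 passed without Dlx2OE sample 1 (adjusted p = 0.0405), beside 5.33% of all genes lower in that fit.

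**Figure D3:**
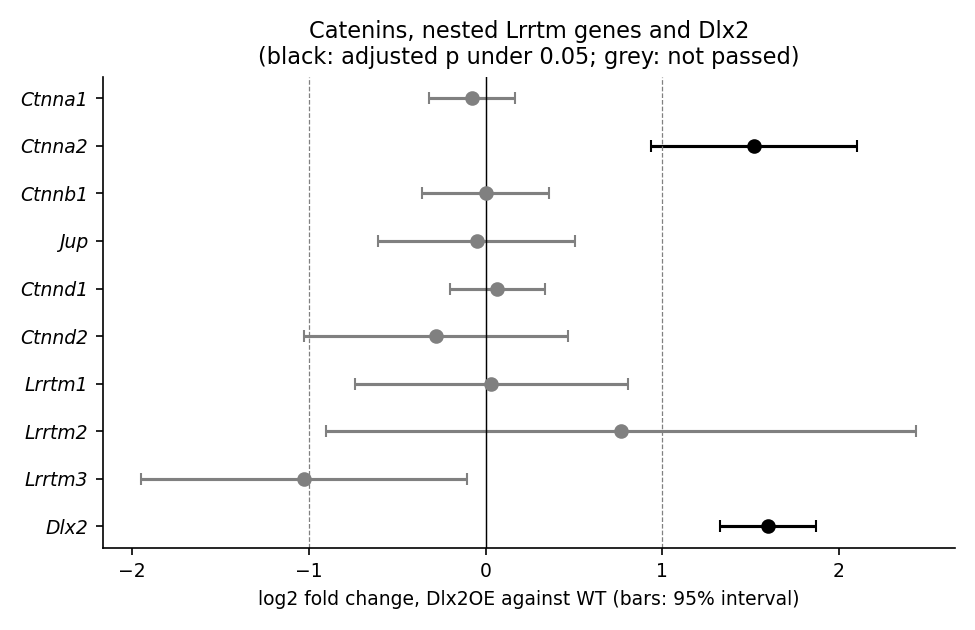
Log2 fold changes of Dlx2OE against WT for the 6 tested catenins, the 3 Lrrtm genes nested in α-catenin introns and Dlx2, with 95% intervals from edgeR's quasi-likelihood fit. Ctnna2 (1.52) and Dlx2 (1.6) are drawn in black for an adjusted p under 0.05, and the intervals of the other genes, Lrrtm3 apart, include 0.

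Of the proteins that bind the cadherin tail, Ctnnb1 (ENSMUSG00000006932; forward strand of chromosome 9, 120929216 to 120960507) was the most abundant catenin. It had 1376, 1265 and 1414 CPM in WT and 1573, 1298 and 1190 CPM in Dlx2OE, so that the Dlx2OE samples held both the highest and the lowest value. The log2 fold change was 0.0022 (SE 0.156, 95% interval -0.36 to 0.36, adjusted p = 0.994), and its sign changed with the processing. In the annotation, 15.1% of its exon sequence overlaps other genes, mainly the antisense gene Ulk4, and the strand setting of the counting is not given in the sources used here.

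Jup (ENSMUSG00000001552; reverse strand of chromosome 11, 100368958 to 100397763), shared by adherens junctions and desmosomes, had 77.7, 114 and 108 CPM in WT and 117, 62.8 and 111 CPM in Dlx2OE. Dlx2OE sample 2 was lowest, samples 1 and 3 were near the upper WT values, and the genotypes overlapped. The log2 fold change was -0.05 (SE 0.243, 95% interval -0.61 to 0.51, adjusted p = 0.901). Within WT, the order of Jup was that of the epithelium sum. Jup was highest in Dlx2OE sample 1, where the epithelium sum was highest, and lowest in Dlx2OE sample 2, where that sum was lowest. Dlx2OE sample 3, in contrast, combined a low sum with a high Jup level. Of the 13 epithelium markers, Krt8, Krt18 and Cldn7 were lower at an adjusted p under 0.05, beside 3.46% of all genes tested, and 0 were higher. The call held for Krt8 in 6 of 6 fits with a sample left out and for Krt18 and Cldn7 in 3 of 6. Without Dlx2OE sample 1, 7 of the 13 were lower, beside 5.33% of all genes. Without the filter 1 was higher and 5 were lower, beside 2.58% and 3.51% of all genes. Other epithelium markers had positive log2 fold changes that did not pass by edgeR with all samples and the filter. Examples are Krt5 with 1.91 (adjusted p = 0.0792, genotypes not overlapping) and Krt15 with 0.46. The part of epithelial RNA in these levels was not tested.

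The δ-catenins bind next to the membrane. Ctnnd1 (ENSMUSG00000034101; reverse strand of chromosome 2, 84600071 to 84650765), which stabilizes cadherins at the surface, varied little, with 21.9, 20.5 and 19.9 CPM in WT and 20.4, 21.7 and 23.3 CPM in Dlx2OE. The genotypes overlapped, and the log2 fold change was 0.07 (SE 0.117, 95% interval -0.20 to 0.34, adjusted p = 0.725). Its level is a lower bound, since 61.2% of its exon sequence (4482 of 7319 bp) is also annotated as Gm28635, a same-strand model that joins Tmx2 and Ctnnd1, and counting in union mode assigns reads on shared exon to neither gene. Gm28635 had 0 counts in each of the 6 samples.

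Ctnnd2 (ENSMUSG00000022240; forward strand of chromosome 15, 30172593 to 31029341), the neuronal relative, varied most among the tested catenins that did not pass. Its levels were 21.2, 39.8 and 33.5 CPM in WT and 23.0, 16.7 and 38.1 CPM in Dlx2OE. Low and high samples occurred in both genotypes. The log2 fold change was -0.28 (SE 0.324, 95% interval -1.03 to 0.47, adjusted p = 0.586), so a decrease of 2-fold was not excluded by the interval. Its order in WT was that of the neuron marker sum, and Dlx2OE sample 3 was highest in both, but Dlx2OE sample 2 was below sample 1 in Ctnnd2 and above it in the sum.

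Per kilobase of merged exon, the order of the WT levels was Ctnnb1 (260 ± 14.9 CPM per kb), Ctnna1 (50.3 ± 1.94), Jup (15.6 ± 3.05), Ctnnd2 (3.05 ± 0.917), Ctnnd1 (2.84 ± 0.141), Ctnna2 (2.13 ± 0.258) and Ctnna3 (0.0380 ± 0.0103; SD, n = 3 each). The WT samples of Ctnnd2 overlapped those of Ctnnd1 and of Ctnna2, so these neighbors did not differ beyond their spread, while the other neighbors in the order did not overlap. In Dlx2OE, Ctnna2 had 6.12 ± 2.16 CPM per kb and stood in position 4, above Ctnnd1 (2.98 ± 0.204) and Ctnnd2 (2.51 ± 1.07). Divided by the 2837 bp of exon that it does not share, Ctnnd1 had 7.33 CPM per kb in WT and 7.68 in Dlx2OE, so that its mean was above that of Ctnna2 in both genotypes. The Dlx2OE samples then overlapped (7.17 to 8.23 for Ctnnd1, 3.94 to 8.25 for Ctnna2).

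**Figure D4:**
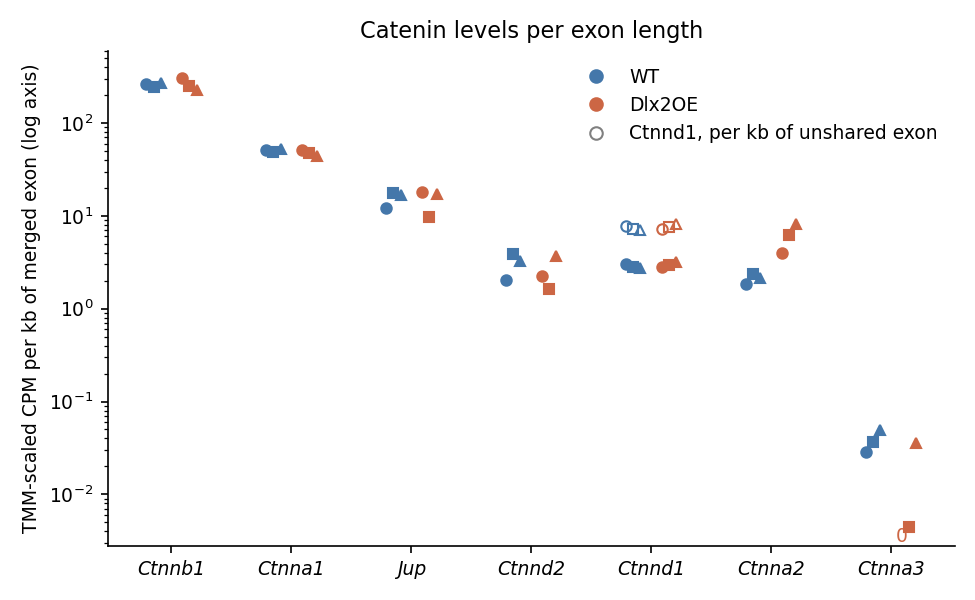
Catenin levels per kilobase of merged exon on a log axis, with 1 point per sample, WT in blue and Dlx2OE in red; open symbols give Ctnnd1 per kilobase of exon not shared with another gene, and the sample of Ctnna3 with 0 counts is written as 0 at the foot. Ctnna2 lies at 1.86 to 2.38 CPM per kb in WT and at 3.94 to 8.25 in Dlx2OE, below Ctnna1 in all samples.

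Paralogs were also compared within each sample, which removes the scaling between libraries. Of the summed α-catenin level per length, Ctnna2 made up 3.53, 4.71 and 4.0% in WT and 7.14, 11.4 and 15.8% in Dlx2OE. All Dlx2OE samples were above all WT samples, and Ctnna1 remained the main α-catenin, with 84.2% at the lowest. The log2 ratio of Ctnna2 to Ctnna1 was higher in Dlx2OE by 1.54 (exact two-sided permutation test, p = 0.1, the smallest possible, adjusted p = 0.4 over 4 ratios). Jup made up 5.66 ± 1.23% of the β-catenin and plakoglobin level in WT and 5.46 ± 1.62% in Dlx2OE (SD, n = 3 each; exact permutation p = 0.8 for the ratio). Ctnnd2 made up 51.0 ± 9.12% of the δ-catenin level in WT and 44.5 ± 9.20% in Dlx2OE (exact permutation p = 0.4 for the ratio), or 29.1 and 24.1% with the unshared exon of Ctnnd1. The ratio of Ctnna3 to Ctnna1 differed by -2.15 on the log2 scale (exact permutation p = 0.3), at counts close to the floor.

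The partners of the catenins that passed the test by edgeR with all samples were higher in Dlx2OE. Among 21 classical cadherins and nectins, the transmembrane adhesion proteins, 2 were higher at an adjusted p under 0.05 and 0 were lower, beside 2.99% and 3.46% of all genes tested, and the median log2 fold change was -0.04. DESeq2 gave 3 higher and 2 lower, beside 5.54% and 7.21% of all genes, and 2 were also lower without the filter on low counts (3.51% of all genes) and without Dlx2OE sample 1 (5.33%). Cdh12, a cadherin known from neurons, had 1.20, 1.56 and 1.48 CPM in WT and 3.61, 3.57 and 4.28 CPM in Dlx2OE (log2 fold change 1.43, SE 0.235, adjusted p = 0.0192). Its genotypes did not overlap. Cdh24 rose by 0.50 on the log2 scale (adjusted p = 0.0298). Each of these calls was kept in 2 of the 6 fits with a sample left out, and both were lost without WT sample 1 and without WT sample 2. At an unadjusted p under 0.05 the list had 5 genes, and the share of all genes at that level was not taken. Of these, Cdh10 (log2 fold change -0.96, adjusted p = 0.0615) and Cdh9 (-1.39, adjusted p = 0.0957) were lower, and the others were higher.

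Among 22 actin linkers and regulators at the junction, 2 were higher and 0 lower (median 0.13), beside 2.99% and 3.46% of all genes tested. Without Dlx2OE sample 1, 1 was higher and 1 lower, beside 5.36% and 5.33% of all genes in that fit. Fmn1, a formin that nucleates actin filaments at junctions, had 3.76, 3.95 and 4.81 CPM in WT and 12, 9.01 and 17.3 CPM in Dlx2OE (log2 fold change 1.61, SE 0.265, adjusted p = 0.0193). The genotypes did not overlap. Arhgap35 rose by 0.50 on the log2 scale (adjusted p = 0.0410). With a sample left out, Fmn1 passed in 4 of 6 fits and Arhgap35 in 1 of 6, and no gene of this list passed without WT sample 1 or without WT sample 2.

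Among 12 genes of β-catenin degradation, 1 was higher and 0 were lower, beside 2.99% and 3.46% of all genes tested. The median log2 fold change of the list was 0.29, or 0.16 with correction for length and GC content. By edgeR, 5 of the list had an unadjusted p under 0.05, all of them higher, and the share of all genes at that level was not taken. DESeq2 gave 4 higher, beside 5.54% of all genes. Without the filter 3 were higher, beside 2.58%, and without Dlx2OE sample 1 also 3, beside 5.36%. Without WT sample 3, 3 were higher in a fit where 2091 genes passed in either direction. The share of all genes that were higher in this fit was not taken, so the 3 have no background. The gene that passed by edgeR with all samples was Axin2, the scaffold that is itself a known Wnt target, with 35.8, 42.5 and 48.4 CPM in WT and 181, 132 and 119 CPM in Dlx2OE. Every Dlx2OE sample was above every WT sample, with sample 1 highest. The log2 fold change was 1.77 (SE 0.183, adjusted p = 0.00552), and the call was kept in each of the 6 fits with a sample left out.

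None of 9 armadillo and α-catenin relatives passed the test by edgeR, with a median of 0.05. There was 1 at an unadjusted p under 0.05, for which the share of all genes was not taken. DESeq2 gave 1 lower, beside 7.21% of all genes. The most abundant relatives were Pkp4 (log2 fold change -0.18), Ctnnbl1 (-0.09) and Zbtb33, the p120-binding repressor Kaiso (0.21). Of 11 desmosome genes, 9 were tested and none passed by edgeR (0 at an unadjusted p under 0.05, 0 by DESeq2), with a median of -0.19. The summed desmosome level was 381, 597 and 567 CPM in WT and 775, 251 and 305 CPM in Dlx2OE, high in Dlx2OE sample 1 and low in samples 2 and 3, as the epithelium sum was. Without Dlx2OE sample 1, 6 of the 9 were lower (median -1.07), beside 5.33% of all genes in that fit. The most abundant were Dsp, the plakin of the desmosome (-0.09), Perp (-0.47) and Dsg2 (-0.19).

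**Figure D5:**
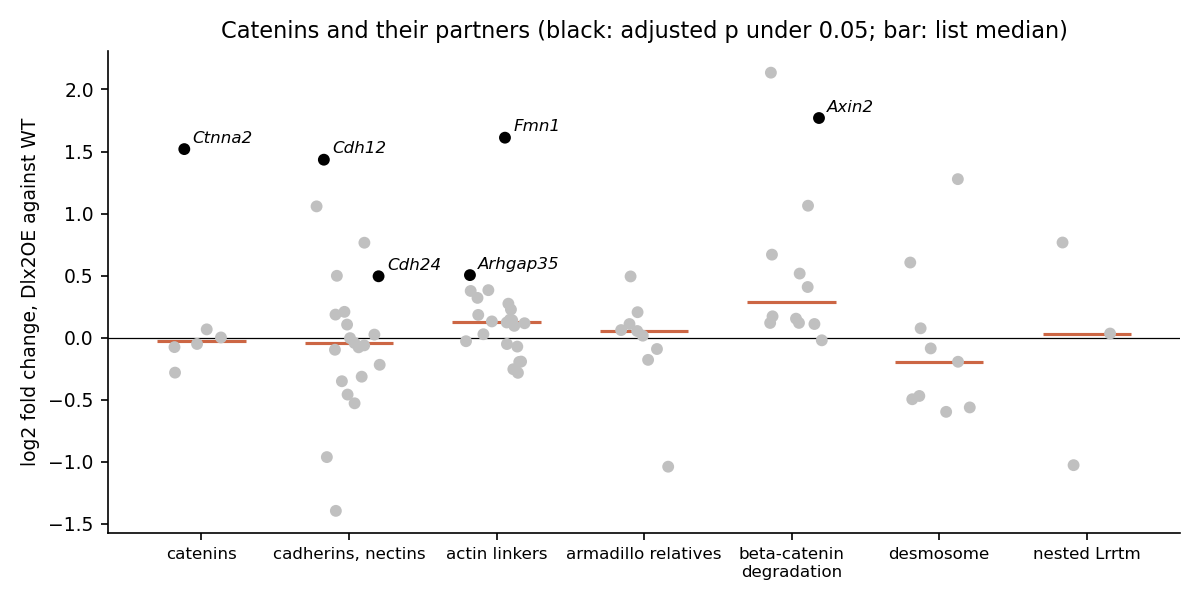
Log2 fold changes of Dlx2OE against WT for each tested gene of the catenins and of the 6 lists of partners, with a red bar at each median and black points for an adjusted p under 0.05. The named points are Ctnna2, Cdh12, Cdh24, Fmn1, Arhgap35 and Axin2, all above 0, and list medians lie between -0.19 and 0.29.

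The genes with the profile most like each catenin were found by the root mean square difference of centered log2 CPM over the 6 samples, among 13224 genes. For Ctnna2 they were Hcn4, a pacemaker channel (difference 0.135, log2 fold change 1.62, adjusted p = 0.0372), and Dnah17, an axonemal dynein chain (0.182, log2 fold change 1.21, adjusted p = 0.0477). For Ctnna1 they were Gdi2 and 1810030O07Rik, for Ctnnb1 Cpox and Rras2, for Ctnnd1 Riok3 and Cep78, for Ctnnd2 Prr36 and Phyhipl, and for Jup Reep6 and Naaladl2. The closest distance was 0.0163 for Gdi2 and the widest among the nearest genes was the 0.135 of Hcn4.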

How the data were processed

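RNA of 3 WT and 3 Dlx2OE samples of E12.5 maxillary process was sequenced by the authors, who mapped read pairs to mm10 with STAR 2.7.3a, counted them per gene with HTSeq 0.12.4 in union mode and deposited raw counts without normalization (versions from the submitters' processing notes). The annotation release and strand setting are not given in the sources used here. Groups and replicate numbers came from the sample labels. Symbols, positions and exon lengths came from GENCODE M21, which lacks 95 of the 53801 identifiers.

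The test of the counts used edgeR 4.0.16 (R 4.3.3; TMM scaling, filterByExpr with a minimum count of 10, quasi-likelihood F test on genotype, Benjamini-Hochberg adjustment over 17514 genes). Calls of upregulation and downregulation followed the study's thresholds, log2 fold changes above 1 or below -1 with adjusted p under 0.05. Adjusted p-values of genes come from this fit unless DESeq2 is named. Log2 CPM used a prior count of 2 and ratios a pseudocount of 0.5 counts. P-values measure the spread between these samples, and the floor of 3 counts covers counting error only. Scripts were tested on simulated data. DESeq2 1.42.0 was the alternative, run in the end at its default setting on all genes. It was first run with its filtering tuned to 0.05 and then without genes at 0 in all samples, and both were set aside after their counts of calls were compared with an earlier count from these data, which the default setting matched. All 3 are given in the closing section.

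Named genes were the 7 catenins, Dlx2, genes of each list that passed (at most 5) or else its 3 most abundant, and the 2 nearest profiles of each catenin with a mean log2 CPM of at least 1. Gm28635, Ulk4 and Tmx2 were added for exon overlap after the data were seen. Cdh9 and Cdh10 were also added then, as lower cadherins that did not pass. Members and lists were chosen with earlier results of these data known. Matplotlib 3.10.9 (Python 3.11.15) drew the figures.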

Additional observations from a re-analysis of the deposited data

How the results depend on the processing

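The log2 fold change of Ctnna2 kept its direction under all 17 alternatives. Its adjusted p was not under 0.05 without WT sample 1, WT sample 2 or Dlx2OE sample 2, and no catenin passed in these fits. Over the 6 fits with a sample left out, its log2 fold change was 1.24 to 1.75. The count of catenins that passed in them ranged from 0 to 1. Dlx2OE sample 1 alone against WT, added after seeing the data, gave a log2 fold change of 0.91 for Ctnna2. Same-numbered samples of the 2 genotypes did not deviate together (correlations -0.07, -0.21 and 0.07), so the numbers were not taken as pairs. A replicate block gave 1.46 for Ctnna2 (adjusted p = 0.0309) and changed no catenin call.

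The sign of catenins near 0 depended on the processing, and the cause was not tested. Ctnnb1 became -0.00035 with DESeq2 at each setting, -0.019 without the filter, -0.0060 with the block, -0.024 with the length and GC correction, -0.034 with both, and -0.13 to 0.087 with a sample left out. Ctnnd1 became -0.027 with the length and GC correction, -0.025 with both and -0.0017 for Dlx2OE sample 1 alone. Jup became 0.011 with library size alone, 0.25 for Dlx2OE sample 1 alone and -0.22 to 0.18 with a sample left out, and Ctnna1 became 0.056 for Dlx2OE sample 1 alone.

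Of all genes, 262 were called higher, 284 lower and 1130 at any fold change. These counts were 447, 440 and 2428 with DESeq2 at its default, 452, 442 and 2459 with its filtering tuned to 0.05, 445, 440 and 2417 without genes at 0, 506, 497 and 2044 without the filter, and 173, 142 and 654 with the length and GC correction and block. Dlx2OE sample 1 alone gave 497 at any fold change. Leaving out a sample gave 39 to 642, 35 to 531 and 79 to 2091.

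WT levels per kilobase moved with the length used. By the longest coding transcript they were 86.5 for Ctnna1, 3.56 for Ctnna2, 0.0745 for Ctnna3, 373 for Ctnnb1, 3.27 for Ctnnd1, 5.29 for Ctnnd2 and 31.2 for Jup, and by unshared exon 306 for Ctnnb1 and 7.33 for Ctnnd1. The 4 ratios moved by less than 1 SD pooled over both genotypes, which is wide for Ctnna3 to Ctnna1 (-1.30 from raw counts plus 2), with ranges over samples left out of 1.24 to 1.88 for Ctnna2 to Ctnna1, -3.31 to -1.18 for Ctnna3 to Ctnna1, -0.68 to -0.11 for Ctnnd2 to Ctnnd1 and -0.29 to 0.18 for Jup to Ctnnb1. Ctnna3 alone among the catenins had samples under 3 counts.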
